A study of Saccharomyces cerevisiae with 78 samples.

Results

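The strain described here, rps14aDi, is a Saccharomyces cerevisiae strain from which only the intron of RPS14A was removed, so that the gene is transcribed without an intron. It was chosen by its label: of 78 arrays in the series, 6 compare rps14aDi with wild type, and they form 3 of 39 replicates. In each replicate the mutant RNA was labelled with Cy3 on 1 array and with Cy5 on the other, and the wild-type RNA carried the opposite dye. The series holds 17 such strains, each lacking the intron of 1 ribosomal protein gene (RPG), and the nearest of them is rps14bDi, which lacks the intron of the paralog RPS14B. The wild-type strain came from the same parent. The intron was first replaced by a selectable cassette, which was then removed by cutting at its I-SceI site, the nuclease being induced with galactose in diploid cells, and haploids were recovered from spores. Mutant and wild type were grown in YEPD, a rich glucose medium, at 30 °C to mid-log density, and total RNA was compared. Neither the labels nor the methods say whether the 3 replicates are separate spores or cultures of 1 clone, so the p-values below may measure technical spread only. Replicate 1 was hybridised on slides of batch D and replicates 2 and 3 on slides of batch C, where a batch is the first part of the array name. Batch and replicate thus cannot be told apart in this strain, and for genes that matter most the value of each replicate is given.

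RPS14A and RPS14B encode the same protein of the small ribosomal subunit, S14, which binds the rRNA near the platform of the subunit and is needed for its assembly. Most yeast genes have no intron, but RPGs often do, and they carry much of the splicing load of a growing cell. S14 is known for feedback on its own supply: extra S14 protein binds a structure in the RPS14B transcript and inhibits its splicing, whereas RPS14A is the more strongly expressed gene and is not known to be regulated that way. The comparison asks what removal of the RPS14A intron does to RNA of RPS14A, of its paralog, of other RPGs and of the remaining genes on the array.

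Each value is the log2 of mutant RNA over wild-type RNA, so 0 means equal RNA and 1 means a doubling. The array detects RNA of a gene by an exon feature (all RNA of the gene), a junction feature (spliced RNA) and an intron feature (unspliced RNA). There are 941 genes with an exon feature, among them 123 RPGs, and 228 genes with the other features, among them 97 RPGs. The feature kinds were read from the printing layout, and the feature taken as the deleted intron was the lowest of its gene in 17 of 17 strains. That check does not tell exon from junction features. The Intron Accumulation Index is the intron value minus the exon value of a gene, and a rise means more unspliced RNA for the same amount of total RNA. No intensities or depths are given, so the precision rests on the number of arrays and on the spots measured for a feature, out of 6. On the 6 arrays 1179 to 2747 of 9216 spots had no value (12.8% to 29.8%). Unless another test is named, each mean was tested against 0 with limma, and its p-value was adjusted over all genes of a feature kind (Benjamini-Hochberg, threshold 0.05). The spread in this test was pooled over the strains of the series. A p-value thus does not rest on the SD of the 3 replicates that is printed beside it.

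Signal from the deleted intron fell in every replicate, while RPS14A RNA by exon and junction did not pass the test for a change. The RPS14A intron value was -2.0, -0.57 and -1.19 in replicates 1, 2 and 3. All of them lay below 0 with the mutant in either dye, and replicate 2, with 1 and 2 spots measured on its arrays, was the weakest. The mean fell by 1.25 ± 0.71 (SD, n = 3; adjusted p = 4.39e-07) and was below the RPS14A intron value of all 16 other strains, which ran from -0.09 to 0.22. Intron values called by this test were 2 of 228 (0.877%). The index of RPS14A was -1.79, -0.54 and -1.27, with a mean of -1.20 ± 0.63 (n = 3; adjusted p = 2.02e-05). These values check the label of each replicate.

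The RPS14A exon value was -0.21, -0.03 and 0.07, a mean of -0.05 ± 0.14 (SD, n = 3; adjusted p = 0.95). The replicates lay on both sides of 0, and 5 of the other strains had a lower mean for this feature and 11 a higher. The arrays of replicates 2 and 3 differed with the dye: the mutant in Cy3 read -0.49 and -0.44, and the mutant in Cy5 read 0.43 and 0.59. Replicate 1 read -0.29 and -0.12, so its dyes lay closer together. Each replicate holds both orientations equally. Fitted by dye, the mean was -0.41 in Cy3 (adjusted p = 0.135) and 0.30 in Cy5 (adjusted p = 0.345). The junction feature, which in the mutant is matched by the intronless transcript, was 0.05, -0.01 and 0.22, a mean of 0.09 ± 0.12 (n = 3; adjusted p = 0.701). Neither feature thus passed the test for a change in RPS14A RNA, and the standard errors of 0.11 for the exon and 0.08 for the junction value limit the change that could be seen.

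RPS14B, the paralog that still has its intron, did not pass in any feature kind. Its exon value was 0.29, -0.18 and -0.13, a mean of -0.01 ± 0.26 (SD, n = 3; adjusted p = 0.996). Replicate 1 was above 0 and the others were below it. Its junction value, the spliced RNA, was 0.03, -0.27 and -0.05 (mean -0.09 ± 0.16; adjusted p = 0.738). Its intron value was 0.02, -0.04 and -0.04 (mean -0.02 ± 0.04; adjusted p = 0.993), the tightest of these values. Its index was -0.27, 0.14 and 0.09 (mean -0.01 ± 0.22; adjusted p = 0.998), with the sign of replicate 1 opposite to that of the others. Signs of the RPS14B values thus followed the slide batch in every feature kind, and for the exon value the difference of batch C minus batch D was itself -0.44 (adjusted p = 0.0327).

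**Figure D1:**
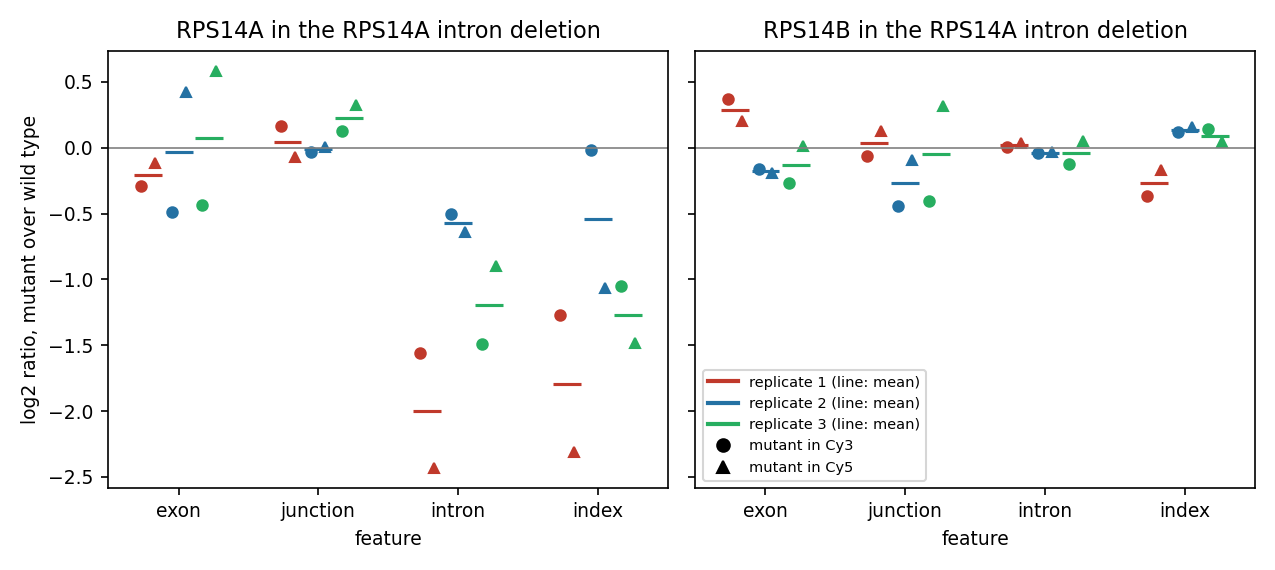
Log2 ratio of mutant over wild type (vertical axis) for the exon, junction and intron features and the index of RPS14A (left) and RPS14B (right) in rps14aDi. Points are single arrays, circles with the mutant in Cy3 and triangles in Cy5, colours are replicates and short lines are replicate means. The RPS14A intron and index lie below 0 on all 6 arrays, while RPS14B features lie between -0.44 and 0.37.

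RPS14B RNA was the largest exon difference between the strains that passed. The RPS14B exon value in rps14bDi was 1.87, 1.78 and 1.62, far from the 3 values in rps14aDi, and the difference rps14aDi minus rps14bDi was -1.76 ± 0.14 (SE; adjusted p = 2.02e-09). Calls by exon value in this contrast were 2 of 941 (0.213%). The junction value of RPS14B differed by -1.98 (adjusted p = 2.51e-10; 2 of 228 junction values called, 0.877%). RPS14A, conversely, was close in both strains: its exon value in rps14bDi was -0.32, 0.19 and 0.00, and the difference was -0.01 ± 0.16 (SE; adjusted p = 0.997). The coding sequences of the paralogs are much alike, and the exon features told them apart at least in rps14bDi, where RPS14B had a mean of 1.76 and RPS14A one of -0.05. Removal of the intron was thus followed by more RNA of the gene itself in rps14bDi, while in rps14aDi no such rise was measured, and the difference of these 2 own-gene values was not tested, since each lies on another feature. The features on the deleted introns differed between the strains as the deletions make them differ: RPS14A intron -1.38 (adjusted p = 2.26e-05), RPS14B intron 2.17 (adjusted p = 5.73e-09; 3 of 228 intron values called, 1.32%). The same held for the indices of RPS14A (-1.37, adjusted p = 0.000346) and RPS14B (3.94, adjusted p = 4.55e-16), with 4 of 228 index values called (1.75%). Deviations of same-numbered replicates correlated between the strains, but both replicates 1 lie on batch D, and a pairing beyond the batch was not tested. In a fit of both strains alone with the replicate number as a block, only the RPS14B exon, junction and index values passed (adjusted p = 0.00677, 0.0259 and 0.0385). The same strains fitted without that block also lost the other calls.

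Most genes on the array were close to wild type. Of 941 exon means 849 (90.2%) lay within 0.2 of 0, and 1 gene was called (0.106%), a fall of ADR1. At an unadjusted p under 0.05 there were 86. By junction value 0 of 228 genes were called (0%; 19 at an unadjusted p under 0.05), and by index 3 of 228 (1.32%). The widest exon means belonged to mating-type genes, from -2.79 for MFA2 to 3.98 for MF(ALPHA)1, but their replicates disagreed and none of them passed. By the boxplot rule, which calls a mean beyond 1.5 interquartile ranges from the quartiles, 41 genes lay outside (4.36%), 16 above 0.27 and 25 below -0.30. Values had the same sign in all 3 replicates for 252 of the 930 genes with 3 values (27.1%), 106 higher and 146 lower.

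**Figure D2:**
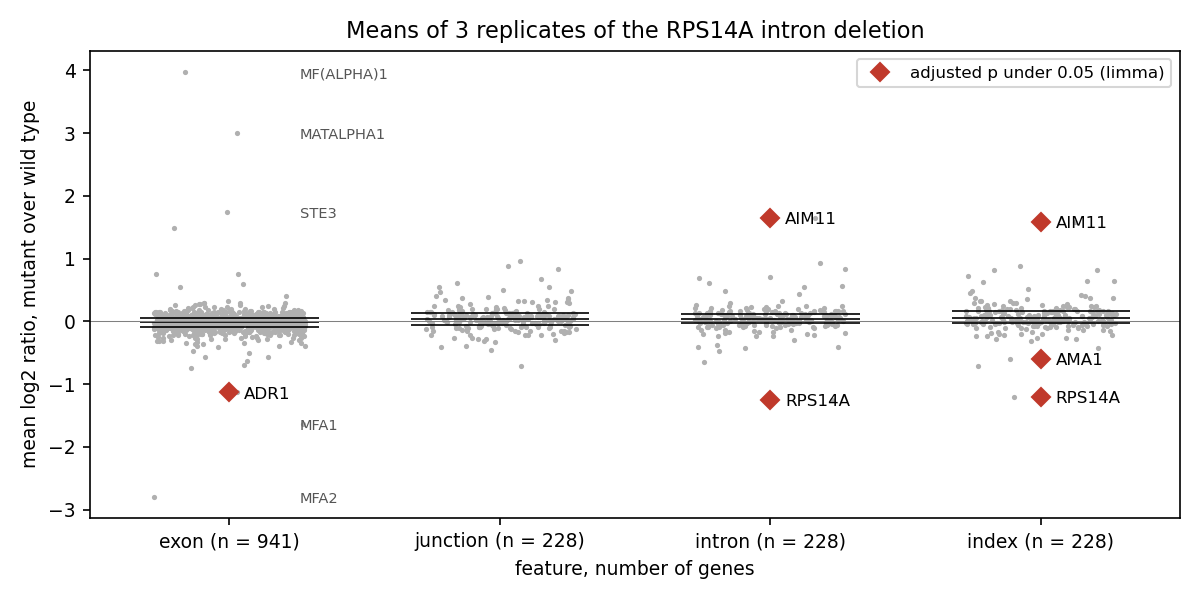
Mean log2 ratio of the 3 replicates (vertical axis) for every gene by exon, junction and intron feature and by index, with the number of genes under each column. Grey points are genes, black lines the quartiles, and red diamonds the genes with an adjusted p under 0.05: ADR1 by exon, RPS14A and AIM11 by intron, and these 2 with AMA1 by index. Mating-type genes, named in grey, hold the ends of the exon column.

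ADR1 encodes a transcription factor needed for genes that glucose represses, such as those for use of ethanol and of fatty acids. Its exon value was -1.39, -0.98 and -1.03 in the 3 replicates. All 3 lay well below 0, and the mean fell by 1.13 ± 0.22 (SD, n = 3; adjusted p = 0.00876). This mean was the lowest of the 17 strains for this gene, though replicates of other strains reached the same values. The other 36 replicates ran from -1.31, in replicate 1 of rps14bDi, to 0.62, with a median of -0.30. In rps8aDi, replicates 2 and 3, which also lie on batch C, read -0.91 and -1.04, close to the same replicates of rps14aDi. The difference from rps14bDi was -0.56 (adjusted p = 0.995) and that from the mean of the 16 other strains -0.87 (adjusted p = 0.176), and neither passed. Within slide batch C, where replicates 2 and 3 of both S14 strains lie, the difference from rps14bDi was -0.80 (adjusted p = 4.77e-05). On the arrays of replicate 1 the value was -2.37 from 2 spots and -0.40 from 4. Without replicate 1 the mean was -1.0 (adjusted p = 0.073), and without replicate 3 it was -1.18 (adjusted p = 0.0674), so the call was lost each time with little change in the mean. Within slide batch C alone the same 2 replicates as without replicate 1 gave an adjusted p of 1e-07. That test is against 0. The other strains with replicates on batch C read below 0 there too, from -0.15 in rps14bDi to -1.04 in rps8aDi. It thus does not set rps14aDi apart from them.

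Other exon values that held their sign in the 3 replicates did not pass. The lowest after MFA2, MFA1 and ADR1 was COS8, a member of a subtelomeric gene family whose near-identical copies the feature may also read, at -0.93, -0.52 and -0.77 (adjusted p = 0.27). RGS2, a regulator of G protein signalling in glucose sensing, measured -0.80, -0.91 and -0.40. TAF1, the largest subunit of the general factor TFIID, measured -0.19, -0.72 and -0.78, and in rps14bDi its mean was -0.37. TYE7, an activator of glycolytic genes, had the tightest of these values, -0.45, -0.35 and -0.37 (adjusted p = 0.14), and in rps14bDi it measured -0.34, -0.29 and -0.32. MCM1, a MADS-box factor that works at mating-type and cell cycle genes, measured -0.09, -0.64 and -0.49. Of the cell wall integrity genes, RLM1 measured -0.37, -0.45 and -0.25, while SLT2, at -0.79, -0.18 and -0.07, was low mainly in replicate 1. At the other end, IME4, an mRNA methyltransferase of meiosis, measured 1.69, 0.57 and 0.03, so that its mean of 0.76 rested mainly on replicate 1. SST2, which dampens the pheromone signal, measured 0.35, 0.63 and 0.78 (adjusted p = 0.176), and 0.89, 0.75 and 0.79 in rps14bDi. The next means, of YNCF0009C, HFI1, SDP1 and SPT5, were 0.30, 0.29, 0.29 and 0.28, each of them highest in replicate 1.

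AMA1, an activator of the anaphase-promoting complex in meiosis whose intron is spliced with the help of the meiotic factor Mer1, had less unspliced RNA for its amount of total RNA. Its index was -1.04, -0.25 and -0.49, below 0 in all replicates and farthest in replicate 1, and the mean fell by 0.59 ± 0.40 (SD, n = 3; adjusted p = 0.00257). The 34 other replicates with a value ran from -0.30 to 0.57, so replicate 2 overlapped them and the others did not. The intron value was -0.71, -0.13 and -0.38 (adjusted p = 0.059) and the exon value 0.33, 0.12 and 0.11 (adjusted p = 0.162). Against rps14bDi the index differed by -0.84 (adjusted p = 0.00187) and the intron value by -0.71 (adjusted p = 0.00886). The intron value of replicate 1 came from 1 spot on 1 array. The dyes disagreed: with the mutant in Cy5 the index was -1.22, -0.88 and -0.66, and with the mutant in Cy3 it was 0.37 and -0.32 in the replicates with a value. Without replicate 1 the mean was -0.37 (adjusted p = 0.236 in the fit over all batches and 0.00869 within batch C). Against rps14bDi within batch C it differed by -0.45 (adjusted p = 0.0207).

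AIM11, a gene named for its effect on inheritance of mitochondria, was called with more intron signal, but on few spots. Its intron value was 3.82, 0.33 and 0.80 (mean 1.65 ± 1.90; adjusted p = 0.0334) and its index 3.62, 0.35 and 0.80 (mean 1.59 ± 1.77; adjusted p = 0.0116). Replicate 1 stood far above the others. These values came from 1, 2 and 2 spots, all with the mutant in Cy3, and no spot was measured with the mutant in Cy5, so the part of the dye cannot be told apart. Without replicate 1 the intron mean was 0.56 (adjusted p = 0.703) and the index 0.57 (adjusted p = 0.59). With only the 3 replicates of rps14aDi in the fit, the index had an adjusted p of 0.821. Its exon mean was 0.06 and its junction mean -0.07. Among values that did not pass, the DNA repair gene RAD14 had an index of 0.81 (adjusted p = 0.0622) and an intron value of 1.74, 0.26 and 0.08.

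Set against the mean of the 16 other strains, 0 of 923 exon values (0%) and 0 of 211 junction values (0%) differed by limma, with 81 exon values at an unadjusted p under 0.05. By intron value 2 of 205 genes differed (0.976%), RPS14A at -1.33 (adjusted p = 3.13e-07) and AIM11 at 1.68 (adjusted p = 0.0428). The same genes made up the 2 of 203 index calls (0.985%), RPS14A at -1.32 (adjusted p = 7.99e-06) and AIM11 at 1.63 (adjusted p = 0.0212). AMA1 has no index value in rps9aDi and was not tested by index in that contrast. Against rps14bDi, 3 further genes passed. HIS2, a histidine synthesis enzyme, measured 0.61, -0.01 and -0.01 in rps14aDi and -0.63, -0.49 and -0.20 in rps14bDi, a difference of 0.63 (adjusted p = 0.0276). The groups did not overlap, but the difference without replicate 1 was 0.43 (adjusted p = 0.641). The arrays of that replicate in rps14aDi read -0.17 and 1.39, each from 2 spots. The index of TAN1, a tRNA modification gene, was 0.33, -0.10 and 0.07 against 0.56, 0.69 and 0.47 in rps14bDi (difference -0.47, adjusted p = 0.0238). Its intron value in replicate 1 of rps14aDi came from 1 spot on 1 array and 2 on the other. The junction value of COX4, a subunit of cytochrome c oxidase, differed by -1.71 (adjusted p = 0.00627), from 4 spots of replicates 2 and 3 in rps14aDi, on batch C, and from replicate 1 alone in rps14bDi, on batch D. Strain and slide batch cannot be told apart in this value.

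**Figure D3:**
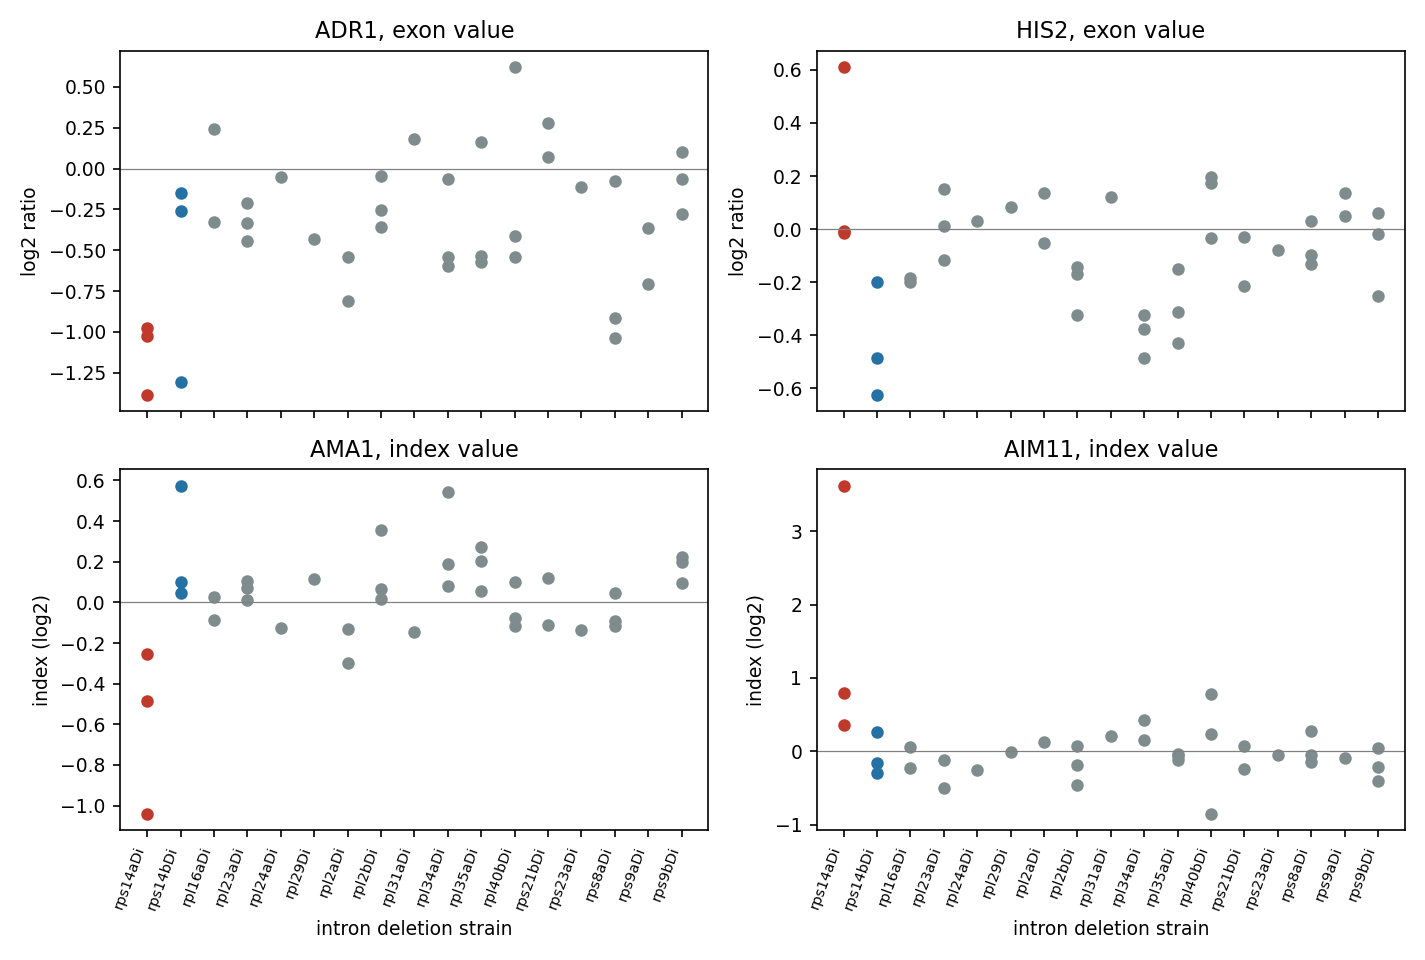
Values of each replicate (vertical axes, log2) by intron deletion strain (horizontal axis) for the exon values of ADR1 and HIS2 and the indices of AMA1 and AIM11, with rps14aDi in red, rps14bDi in blue and the other strains in grey. ADR1 is low in all 3 red points but meets points of other strains, among them rps8aDi. The HIS2 and AIM11 points of rps14aDi are spread by replicate 1.

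No ribosomal protein gene was called by exon value. Large subunit genes had exon means from -0.17 to 0.19 with a median of 0.03, and small subunit genes from -0.20 to 0.19 with a median of -0.01, beside a median of -0.01 over all 941 genes. Of these 70 and 53 genes 0 lay outside the whiskers. The outermost were RPS9A at -0.20 (-0.40, -0.11 and -0.09) and RPS13 at 0.19 (0.34, 0.17 and 0.05), both of the small subunit. RPS13 had the lowest RPG index after RPS14A, -0.28, -0.23 and -0.12 (mean -0.21, adjusted p = 0.513), and RPS23B had the highest, 0.33, 0.34 and 0.29 (mean 0.32 ± 0.03, adjusted p = 0.0622). Over the 97 intron-containing RPGs the median index was 0.03, beside 0.06 over all 228 genes and 0.07 over the 131 others.

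In the lists around ribosome assembly and RNA handling 0 members were called by exon value, beside 1 of 941 genes in all (0.106%), so the count says nothing particular about them. The median exon mean was 0.00 for 16 measured small subunit assembly factors, whose medians by replicate were 0.17, -0.09 and -0.03. Between batches 4 of the 16 were lower on batch C than on batch D and 0 higher. Over all 930 genes tested between batches 81 were lower on batch C and 112 higher. The median exon mean was -0.03 for 22 large subunit assembly factors and -0.04 for 31 exosome and rRNA processing nucleases. It was -0.01 for 89 spliceosome proteins, the lowest of which was SPP2 at -0.31 (-0.48, -0.07 and -0.38; adjusted p = 0.129), and 0.00 for 12 translation factors. Genes whose splicing is known to be regulated in yeast had a median of 0.00 over 18 measured. RPL30, whose protein inhibits splicing of its own transcript, had exon values of 0.18, -0.17 and -0.26 and an index of -0.35, 0.18 and 0.15, with replicate 1 opposite to the others. YRA1, an RNA export factor with a regulated intron, stayed at an exon mean of 0.01 and an index of 0.08. Of 13 meiosis genes 1 lay above the whiskers (IME4) and 4 below, beside 4.36% of all genes outside them. The lowest, MEI4, measured -1.97, -0.05 and 0.10, so its mean of -0.64 came from replicate 1. Cells in this medium do not undergo meiosis, and such genes have little RNA there.

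Mating-type genes split the replicates. Yeast haploids are a or alpha cells: a cells make a-factor from MFA1 and MFA2, and alpha cells make alpha-factor from MF(ALPHA)1 and MF(ALPHA)2 and carry the a-factor receptor STE3, under control of MATALPHA1 and MATALPHA2. MFA2 measured -0.19, -4.50 and -3.69 in the 3 replicates, and MFA1 -0.24, -1.95 and -2.72. MF(ALPHA)1 measured -0.35, 6.33 and 5.95, MF(ALPHA)2 -0.19, 2.38 and 2.28, and STE3 -0.11, 2.70 and 2.64. Replicate 1 was thus near 0 for each of these genes, while replicates 2 and 3 had less RNA of the a-specific and more of the alpha-specific genes than wild type. MATALPHA1 measured 2.76 and 3.26 in replicates 2 and 3 and had no value in replicate 1. MATALPHA2 measured -0.24, 1.23 and 1.28, and HMRA2, which shares sequence with it, -0.66, 1.27 and 1.05. A ratio does not show whether the mutant or the wild-type RNA differed between replicates, and fewer cells of a type and less RNA per cell cannot be told apart in such samples.

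The markers measured here are 2 of 8 listed for a cells and 5 of 11 listed for alpha cells, and all 7 moved in this way in replicates 2 and 3. Of 8 genes of haploids and of the pheromone response, 2 were higher on batch C than on batch D by test, beside 112 of 930 genes in all. These 2 were KAR4 at -0.24, 0.64 and 0.80 and FUS3 at -0.27, 0.42 and 0.40. SST2, as above, was positive in replicate 1 too, STE12 measured -0.07, 0.23 and 0.41, and KSS1 (-0.60, -0.07 and 0.01) and RME1 (-0.32, -0.12 and 0.05) were not above 0.1 in any replicate. In rps14bDi all 3 replicates had the pattern, with MFA2 at -3.04, -3.95 and -3.80 and MF(ALPHA)1 at 5.87, 5.43 and 6.16. The batch difference (C minus D) of rps14aDi therefore differed from that of rps14bDi by -3.07 for MFA2 (adjusted p = 0.00391) and by 6.57 for MF(ALPHA)1 (adjusted p = 0.0175). Such differences passed for 17 of 929 exon values (1.83%) and 16 of 215 index values (7.44%). On batch D each strain has 1 replicate, so the spread in this test, as in that of batch C against batch D, comes from the other strain and batch groups and is assumed to hold there. The pattern was not particular to rps14aDi: MFA2 lay below -1 in 21 of 36 replicates of the other strains, in 10 of 16 strains. These counts include the 3 replicates of rps14bDi. RPS14A and MATALPHA1 lie on chromosome III with 9 genes between them. Besides MATALPHA1 and MATALPHA2, the 5 neighbours measured within 20 genes of RPS14A had exon means from -0.20 for RRP43 to 0.09 for TAF2. Whether the mating-type pattern bears on the other values below was not tested.

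**Figure D4:**
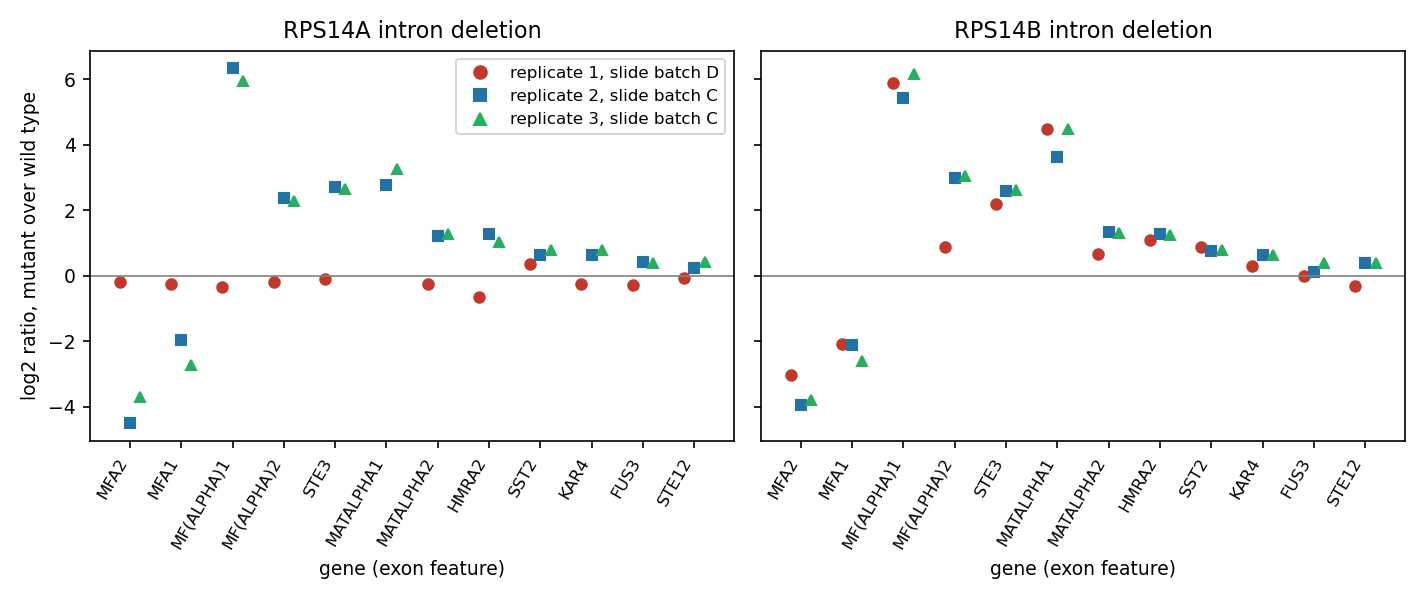
Exon log2 ratio of mutant over wild type (vertical axis) for a-specific, alpha-specific and pheromone genes (horizontal axis) in rps14aDi (left) and rps14bDi (right), with 1 point per replicate. Replicate 1 of rps14aDi (red, slide batch D) lies near 0 where replicates 2 and 3 (slide batch C) reach from -4.50 to 6.33, whereas the 3 replicates of rps14bDi lie on the same side of 0 for MFA1, MFA2 and the alpha-specific genes.

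The split was wider than the mating-type genes. Across genes, which are not independent replicates, exon values of replicates 2 and 3 correlated with r = 0.90 (n = 941; 0.57 over 924 genes without mating-type and pheromone genes), while replicate 1 correlated with them at -0.08 and -0.09 (n = 930 each). Replicate 1 of rps14aDi and replicate 1 of rps14bDi, both on batch D, correlated at 0.45 (n = 929). Batch C and batch D values of rps14aDi differed for 193 of 930 genes by exon value (20.8%), 112 higher and 81 lower on batch C, and for 70 of 217 by index (32.3%). The median SD of the spots of a feature was 0.11 to 0.17 on the arrays of batch C and 0.23 to 0.24 on those of batch D.

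Stress-responsive genes were among those that differed. Of 12 measured, 9 were higher on batch C than on batch D and 0 lower, and their median was -0.37, 0.15 and 0.13 in replicates 1, 2 and 3. In rps14bDi it was -0.69, -0.09 and -0.10, so replicate 1 was the low one there too. HSP104, the disaggregase induced by heat, measured -1.56, 0.23 and 0.33, and the chaperone gene SSA1 -0.36, 0.41 and 0.41. KAR2, the chaperone of the endoplasmic reticulum, measured -1.65, -0.15 and 0.10. TDH1, a glyceraldehyde-3-phosphate dehydrogenase gene whose feature may also read its close copies, measured -2.54, 0.85 and 0.85. Opposite differences were found for GAL4, the activator of galactose genes, at 1.15, -0.08 and -0.11, for the rRNA processing gene RRP5 at 0.61, -0.20 and -0.34, and for DOT6, a repressor of ribosome biogenesis genes, at 0.43, -0.73 and -0.50. For DOT6 and for GAT1, a nitrogen regulator, the batch difference was itself unlike that in rps14bDi, by -1.38 and -2.32, and the test of these differences passed.

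**Figure D5:**
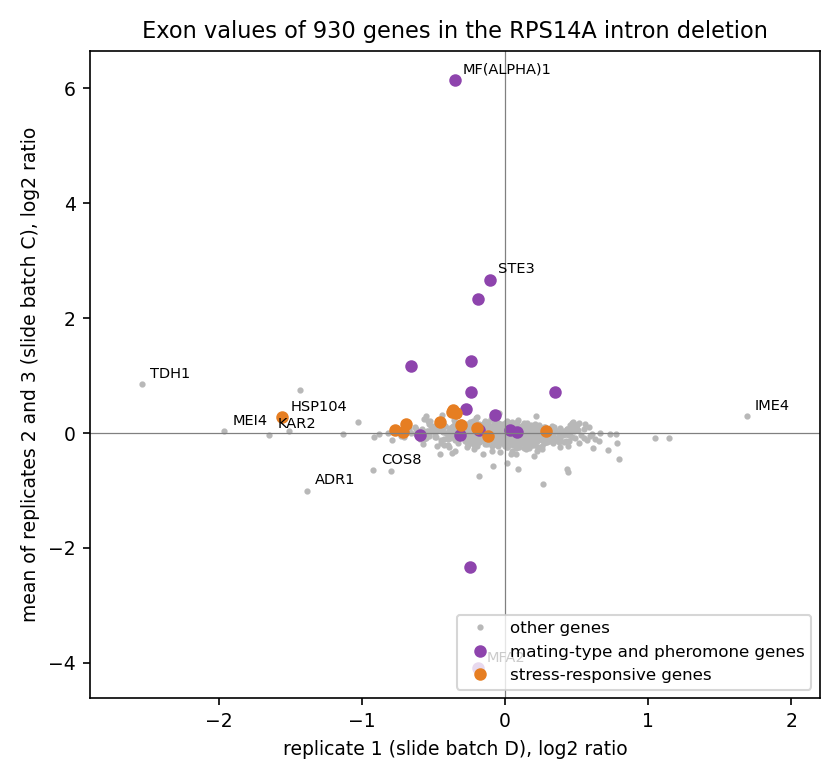
Exon log2 ratio in replicate 1 (horizontal axis, slide batch D) against the mean of replicates 2 and 3 (vertical axis, slide batch C) for 930 genes of rps14aDi. Mating-type and pheromone genes (purple) spread along the vertical axis, most stress-responsive genes (orange) lie to the left of 0, and ADR1 is low on both axes.

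Within batch C alone, where the spread is that of replicates 2 and 3 and of the other strains on that batch, 95 of 941 exon values were called (10.1%), 30 higher and 65 lower. In the fit of all strains by strain and batch, whose spread comes from all groups with over 1 replicate, the same 2 replicates gave 36. All 7 a- and alpha-specific genes measured were among the 95, as were 4 of 8 pheromone response genes and 5 of 12 stress-responsive genes. Of the RPGs, 3 of 70 large subunit genes were called higher and 4 lower, and 0 of 53 small subunit genes higher and 4 lower. HSP104 rose there by 0.28 (adjusted p = 0.00131) and SSA1 by 0.41 (adjusted p = 0.00038), against negative values in replicate 1. TAF1 fell by 0.75 (adjusted p = 0.0018), MCM1 fell by 0.56 (adjusted p = 0.000113) and TYE7 fell by 0.36 (adjusted p = 0.000365), each with a negative value in replicate 1 too. These tests are against 0, and the features were low in other strains as well. Means of the other strains ran from -0.53 to -0.035 for TAF1, -0.47 to 0.04 for MCM1 and -0.56 to 0.00 for TYE7. Replicates 2 and 3 of rps14bDi read -0.36 and -0.82 for TAF1 and -0.26 and -0.32 for MCM1. CUP1-2, a copy of the metallothionein gene, fell by 0.89 (adjusted p = 1.26e-06) but measured 0.26 in replicate 1. In rps14bDi it measured -0.34, -0.79 and -0.98, so the batch C values were alike in both strains. Among RNA processing genes NAB3 and NRD1, partners in termination of short transcripts, fell by 0.36 and 0.24, against 0.04 and 0.38 in replicate 1.

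DBP2, an RNA helicase gene with a long, regulated intron, was called by exon, junction and index within batch C. Its exon value was -0.37 and -0.35 in replicates 2 and 3, its junction value -0.53 and -0.47 (adjusted p = 0.00104) and its index 0.29 and 0.35 (adjusted p = 0.0119), so spliced RNA was lower and the index higher. Replicate 1 gave 0.07, 0.14 and -0.91 for these features, and over the 3 replicates none of them passed.

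Introns of RPGs made up most intron calls on batch C. Of 228 intron values 25 were called within that batch (11%), 20 higher and 5 lower, and 19 of the 20 higher ones belonged to the 97 RPGs. Examples were RPL33A at 0.38 and 0.32, RPL6B at 0.31 and 0.31, and RPL20B at 0.34 and 0.22 in replicates 2 and 3. The other was MUD1, which encodes a protein of the spliceosome, at 0.77 and 0.65, with no value in replicate 1. RPS14A was the RPG among the 5 lower ones, and the others were YOP1, ECM33, AMA1 and NOG2. By index, which sets introns against exons, 7 of 97 RPGs and 4 of 131 other genes were called higher within batch C. Whether RPGs differ from other genes in this was not tested. The median index of the RPGs was -0.11, 0.13 and 0.13 in replicates 1, 2 and 3, and that of the other genes 0.13, 0.05 and -0.03. Between batches 28 of 97 RPG indices were higher on batch C and 0 lower, whereas of 120 other genes 10 were higher and 32 lower. Replicate 1 thus had the RPG introns lower rather than higher, and over the 3 replicates 0 RPG introns other than that of RPS14A passed. In rps14bDi the medians of the RPGs were -0.16, 0.03 and 0.03, low in replicate 1 as well.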

How the data were processed

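The deposited log2 ratios, mutant over wild type for each spot, had been normalized by the authors (marray and limma, in a pipeline built on Goulphar). Background correction, filters and versions were not given in the sources used here. Spots were named by the array's annotation, and all 982 symbols matched the yeast gene table. No column was left out (0 unused). The 6 spots of a feature were averaged, then the dye-swapped arrays of a replicate. Features without a symbol (79) or without a kind (17) were not used. The 33 features of tRNA type were kept as a kind of their own.

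The 39 replicate values of the 17 strains entered limma's lmFit and eBayes (limma 3.58.1, R 4.3.3; 1 mean per strain, 22 residual degrees of freedom), and contrasts and batch terms came from the same kind of fit. The fit was tested on simulated data, drawn with independent errors and without a difference between slide batches. The median moderated SD was 0.15 for exon, 0.19 for junction, 0.18 for intron and 0.23 for index values. Deviations of same-numbered replicates of rps14aDi and rps14bDi correlated at 0.53, 0.31 and 0.50. All were over 0.1, so these numbers were used as a block in alternative fits. Both replicates numbered 1 lie on batch D. The deviations are taken from the mean of each strain, so a shift of replicate 1 enters those of replicates 2 and 3 as well. The correlations therefore cannot show that replicates 2 and 3 pair by number. Tables and figures used Python 3.11.15, pandas 2.3.3, numpy 2.4.6 and matplotlib 3.10.9.

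Named genes were the S14 genes, genes called, the outermost means of the same sign in all replicates (12 each way by exon, 6 by other features), up to 6 members of each list, the measured mating-type genes and up to 10 genes each way called between batches; others, such as those named within batch C, were chosen after their values were seen. Members, lists and rules were chosen with earlier results of these data known. Alternatives changed the centring and scaling of arrays, the summary and completeness of spots, the dye, the batch, the replicate block, the unit of replication, the variance model and the replicates used. Fits within a batch, and of the 2 S14 strains alone, were partly added after seeing the data.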

Additional observations from a re-analysis of the deposited data

Results flagged for a closer look

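Differences of rps14aDi from other strains that passed the test of the difference are listed here as values. Against rps14bDi these were, by exon value, HIS2 at 0.63 and RPS14B at -1.76. By junction value they were COX4 at -1.71 and RPS14B at -1.98; that of COX4 sets batch C replicates of rps14aDi against 1 batch D replicate of rps14bDi, so strain and batch cannot be told apart in it. By intron value they were RPS14A at -1.38, AMA1 at -0.71 and RPS14B at 2.17. By index they were RPS14A at -1.37, AMA1 at -0.84, TAN1 at -0.47 and RPS14B at 3.94. With the 16 other strains as the comparison, the intron values were RPS14A at -1.33 and AIM11 at 1.68, and the indices RPS14A at -1.32 and AIM11 at 1.63.

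The difference between slide batches was itself unequal in the 2 S14 strains for 17 exon values and 16 indices. The exon values with a difference in rps14aDi below that in rps14bDi included MFA2 (-3.07), GAT1 (-2.32), PRP19 (-1.57) and DOT6 (-1.38). Those above it included MF(ALPHA)1 (6.57), MEI4 (2.65), THP2 (1.10) and IME1 (0.87). Among the indices SAC6 (-4.38), BOS1 (-2.56) and AIM11 (-2.56) lay at one end, and UBC8 (1.55), BET1 (1.53) and RPS14B (1.41) at the other. These tests rest on 1 replicate of each strain on batch D. The rule for a single sample far from its group was not applied to groups of 3.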

How the results depend on the processing

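Counts of called genes depended on the processing more than the named values did. Exon calls, 1 in the fit reported, were 0 with the median of the spots, 0 with all 6 spots required, 0 with the strain's own replicates only, 22 with the mutant in Cy3, 47 in Cy5, 2 with slide batch as a block, 13 with each array as a replicate, 18 with the correlation of dye-swapped arrays estimated (-0.21), 95 within batch C, 213 within batch D, which holds 1 replicate, and 36 for batch C in the fit by strain and batch. Junction calls (0) were 1, 3, 1, 3 and 44 with all 6 spots, Cy5, the estimated correlation, batch C and batch D. Intron calls (2) were 4 with scaled arrays, 10 with all 6 spots, 1 in Cy3, 6 in Cy5, 6 with the batch block, 4 with the estimated correlation, 0 with own replicates, 25 within batch C, 74 within batch D and 11 for batch C by strain and batch. Index calls (3) were 5 with scaled arrays, 6 with the median, 0 with own replicates, 15 within batch C, 68 within batch D and 6 for batch C by strain and batch. Leaving out each replicate gave 0 to 3 exon, 0 to 1 junction, 2 to 10 intron and 1 to 11 index calls. Whiskers of 3 interquartile ranges left 16 genes outside in place of 41.

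Against rps14bDi, exon calls (2) were 1 with the median, all 6 spots or Cy3, 48 within batch C, 31 within batch D and 1 to 2 without single replicates. Index calls (4) were 0 with all 6 spots, 2 in either dye and 20 within batch D. With both strains fitted alone, exon and index calls were 1 each with or without the replicate block. In the fit of all strains the replicate block left exon calls at 1, index calls at 3 and intron calls at 2. Exon and index calls against rps14bDi stayed at 2 and 4, so this block changed no other count of those named. Against the other strains, exon calls (0) were 3 with the estimated correlation and 41 within batch C. Index calls (2) there were 4 with the median, 1 with all 6 spots, 0 in Cy3, 1 in Cy5, 1 with the batch block, 4 with the estimated correlation, 5 within batch C and 1 to 8 without single replicates.

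Signs turned for values near 0. RPS14A exon became 0.30 in Cy5 and 0.021 within batch C, without replicate 1 or for batch C by strain and batch, and ran from -0.118 to 0.021 without single replicates. RPS14B exon became 0.018 with the median, 0.08 with all 6 spots, 0.008 in Cy5, 0.007 with the batch block and 0.29 within batch D, and ran from -0.153 to 0.08 without single replicates. RPS14B junction became 0.12 in Cy5 and 0.033 within batch D, and its intron value 0.019 and 0.024. RPS14B index became 0.017 with scaled arrays, 0.092 with all 6 spots, 0.011 in Cy5 and 0.115 within batch C or for batch C by strain and batch, and ran from -0.086 to 0.115 without single replicates. AMA1 index became 0.028 in Cy3. ADR1 kept its sign but lost its call with the median (adjusted p = 0.0613), all 6 spots (0.105), Cy5 only (0.0588) and own replicates (0.0779). The cause of these changes was not tested. The fits for batch C by strain and batch, and of both S14 strains alone, were chosen after seeing the data. Spots without a value, and the lack of intensities, limit what dim features can show.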

Other observations

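Features of tRNA type form a group that the text has not described. Of 32 tested, 0 were called by limma, and 6 had an unadjusted p under 0.05. Their median was 0.34 in replicate 1, 0.01 in replicate 2 and 0.00 in replicate 3, so the higher level was that of replicate 1, the only one on batch D. Of 30 with values on both batches 2 were higher on batch C and 6 lower. In rps14bDi the medians were 0.16, -0.08 and 0.00.

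The medians of exon means by chromosome ran from -0.03 to 0.03 over the 16 nuclear chromosomes. For the 11 mitochondrial genes with an exon value the median of the means was -0.07, and by replicate it was -0.40, 0.11 and 0.00, low in replicate 1.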
